A study of Homo sapiens with 24 samples.

Results

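Butyrophilins are membrane proteins of the immunoglobulin superfamily that T cells meet on the surface of other cells. The genes described here are the 5 butyrophilins of the BTN2A and BTN3A subfamilies, BTN2A1, BTN2A2, BTN3A1, BTN3A2 and BTN3A3, chosen by symbol through their Ensembl identifiers out of 39321 genes in the count table. RNA was sequenced from A498 and 786-O, lines established from human clear cell renal carcinoma (ccRCC), to ask how IFNγ and the silencing of PD-L1 change their expression. Each line had 4 groups of 3 libraries, 24 in all: a non-targeting control siRNA (Cnsi), Cnsi with IFNγ, a pool of siRNAs against PD-L1 (PD-L1si), and PD-L1si with IFNγ. All cells were thus transfected, with siRNA at 20 nM, and IFNγ was given at 50 ng/mL for the last 24 hours. The RNA extraction protocol names 3 of these groups and not PD-L1si without IFNγ, so each value of that group rests on the sample labels. The labels enter the PD-L1si groups as a PD-L1 knockout genotype although the cells were transiently silenced, and they also describe luciferase-expressing sublines without saying whether these gave the RNA.

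BTN3A1 and BTN2A1 act together in the recognition of phosphoantigens by gamma-delta T cells. The inner domain of BTN3A1 binds phosphoantigens, which are intermediates of isoprenoid synthesis, and BTN2A1 binds the T cell receptor. BTN3A2 and BTN3A3 pair with BTN3A1, BTN3A2 lacks the inner domain, and BTN2A2 is known as an inhibitor of T cell activation. In tumor cells the BTN3A proteins are of interest as the target of agonist antibodies that arm these T cells.

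The 5 genes lie side by side on the forward strand of chromosome 6 (GRCh38), at the edge of a large histone gene cluster. In order, BTN3A2 (ENSG00000186470) covers chr6:26365159-26378320, BTN2A2 (ENSG00000124508) chr6:26383096-26394874, BTN3A1 (ENSG00000026950) chr6:26402237-26415208, BTN3A3 (ENSG00000111801) chr6:26440472-26453415 and BTN2A1 (ENSG00000112763) chr6:26457904-26476621, all protein-coding. The genes are close copies of each other. Of all 100-base windows in their annotated transcripts, 4.89% of those of BTN3A2, 5.60% of BTN3A3 and 2.76% of BTN3A1 occur without a mismatch in a transcript of another gene, mostly another BTN3A gene, against 0.662% for BTN2A1 and 0.355% for BTN2A2. How the reads of these stretches were divided between the genes was not tested, and the values of the 3 BTN3A genes carry that uncertainty.

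RefSeq windows from 250 bases before to 50 bases after the annotated start (GRCh38.p14, forward strand) were at hand for 3 of the 5 genes, BTN3A2, BTN3A3 and BTN2A1. They are shown because 2 of these genes passed the test for IFNγ in both lines and BTN2A1 in neither. BTN3A2 covers chr6:26364948-26365247, BTN3A3 chr6:26440254-26440553 and BTN2A1 chr6:26457705-26458004. Capitals mark CCCAGCAACTG, the longest run that all 3 windows share, and CCAAT on either strand, the Y box bound by NF-Y. The shared run is written like the X box that RFX factors bind in MHC promoters.
BTN3A2: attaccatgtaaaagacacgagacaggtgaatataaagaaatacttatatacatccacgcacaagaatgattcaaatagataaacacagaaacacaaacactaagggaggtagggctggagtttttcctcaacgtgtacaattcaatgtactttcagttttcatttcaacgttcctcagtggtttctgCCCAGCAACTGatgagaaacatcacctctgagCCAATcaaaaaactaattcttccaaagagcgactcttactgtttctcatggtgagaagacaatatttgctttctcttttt
BTN3A3: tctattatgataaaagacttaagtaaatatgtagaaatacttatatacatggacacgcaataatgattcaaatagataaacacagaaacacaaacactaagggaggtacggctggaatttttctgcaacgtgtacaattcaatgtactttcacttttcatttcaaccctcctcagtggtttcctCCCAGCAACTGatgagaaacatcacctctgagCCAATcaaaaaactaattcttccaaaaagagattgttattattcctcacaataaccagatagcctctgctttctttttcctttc
BTN2A1: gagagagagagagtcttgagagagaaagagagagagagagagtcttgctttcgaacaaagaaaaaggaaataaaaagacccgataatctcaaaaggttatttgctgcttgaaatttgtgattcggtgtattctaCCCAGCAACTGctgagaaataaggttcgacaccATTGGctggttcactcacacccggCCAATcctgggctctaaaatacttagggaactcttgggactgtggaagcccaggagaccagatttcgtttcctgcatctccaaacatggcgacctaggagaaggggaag

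The shared run stood on the forward strand, 62 bases before the RefSeq start in BTN3A2, 66 before that of BTN3A3 and 116 before that of BTN2A1. It was read from these windows. On either strand, 21 of 35116 promoter windows in the table (0.0598%) held it, these windows among them, so that share does not test the run. A CCAAT followed it downstream in each window, at 30, 34 and 59 bases before the start, and BTN2A1 held a further one on the reverse strand at 83 bases, but 34.6% of all windows hold CCAAT. The windows of BTN3A2 and BTN3A3 aligned with 82.3% identical columns and shared an unbroken run of 58 bases, whereas BTN2A1 aligned to them with 43.5% and 43.7% identical columns. The core of the interferon-stimulated element, GAAANNGAA, occurred only in BTN3A3, on the reverse strand and past the start (8.11% of all windows). A second BTN3A2 window in the table, from chr6:26367928, held none of these sequences.

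The libraries held 19256316 to 30350461 counts. CD274, which encodes PD-L1, was the siRNA target and followed the labels. In A498-labelled libraries it stood at 3.99 to 5.74 CPM (counts relative to library size, TMM-scaled) with Cnsi, 191 to 199 with Cnsi and IFNγ, 0.810 to 1.01 with PD-L1si and 26.9 to 28.5 with PD-L1si and IFNγ. In 786-O-labelled libraries the ranges were 3.87 to 4.18, 55.7 to 65.8, 1.21 to 1.90 and 30.6 to 32.7 CPM. The log2 fold change of CD274 with PD-L1si under IFNγ was -2.81 and -0.94, a difference of 1.86 between the lines (adjusted p = 5.98e-22 by edgeR). PAX8, a marker of renal epithelium, had 1632 to 7069 counts in all libraries, the leukocyte genes PTPRC, CD3D and TRDC had at most 3, and PAX2 was at 0 in every 786-O-labelled library. That holds for 1475 genes whose A498-labelled libraries sum to over 1000 counts, the actin gene ACTB among them, but for none of the 5 butyrophilins. According to the study's methods the lines were sequenced on different instruments, so line and instrument cannot be told apart, and whether the labels name the lines the right way round was not tested.

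With the control siRNA, IFNγ raised all 3 BTN3A genes in both lines by 2.34- to 3.67-fold. BTN2A2 rose 2.14-fold in 786-O-labelled libraries and did not pass the threshold in A498-labelled ones, and BTN2A1, the partner of BTN3A1, passed in neither. A gene passed at an adjusted p under 0.05 and a log2 fold change above 0.5 or below -0.5 (edgeR quasi-likelihood test, Benjamini-Hochberg adjustment over all genes tested). By this threshold 3 of the A498-labelled 5 genes were higher with IFNγ in the libraries, where 36.8% of all genes tested passed and 18.2% were higher, and 4 of 5 in 786-O-labelled ones, where 18.5% passed and 11.1% were higher. Where libraries of different groups are said below not to overlap, the share of all genes that separate likewise was not computed. The libraries are bulk RNA, in which more cells with the transcript and more transcript per cell cannot be told apart.

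BTN3A1, the phosphoantigen sensor, stood at 26.7, 25.5 and 27.0 CPM in the A498-labelled 3 Cnsi libraries and at 86.8, 92.9 and 90.3 CPM with IFNγ. The groups lay far apart, with a log2 fold change of 1.77 (SE 0.0485, adjusted p = 6.04e-27 by edgeR, n = 3 per group), the 857th highest of 20916 genes tested. In 786-O-labelled libraries its level went from 29.9, 31.6 and 30.3 CPM to 105, 116 and 116 CPM. That was a log2 fold change of 1.88 (SE 0.0514, adjusted p = 1.46e-20 by edgeR), the 764th highest of 21209.

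BTN3A2, the member without the inner domain, had the highest level per length of the 3 without IFNγ. It stood at 50.0, 52.6 and 51.9 CPM in the A498-labelled Cnsi libraries and at 119.9, 122 and 119 CPM with IFNγ, a log2 fold change of 1.22 (SE 0.0450, adjusted p = 4.80e-23 by edgeR). In 786-O-labelled libraries it went from 44.9, 42.9 and 41.9 CPM to 108, 125 and 129 CPM, a log2 fold change of 1.48 (SE 0.0600, adjusted p = 8.56e-17 by edgeR). The groups did not overlap in either line and replicate 1 was the 786-O-labelled lowest of the IFNγ libraries.

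BTN3A3, the BTN3A gene with the lowest level per length without IFNγ, stood at 16.3, 16.6 and 16.2 CPM in the A498-labelled Cnsi libraries and at 54.6, 52.5 and 49.7 CPM with IFNγ. In 786-O-labelled libraries it stood at 23.0, 24.2 and 23.3 CPM without IFNγ and at 67.1, 77.4 and 80.0 CPM with it. Its log2 fold change was 1.67 in both lines (SE 0.0580 and 0.0607, adjusted p = 8.18e-24 and 8.16e-18 by edgeR), and replicate 1 of the 786-O-labelled Cnsi IFNγ group was again the lowest of its group.

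**Figure D1:**
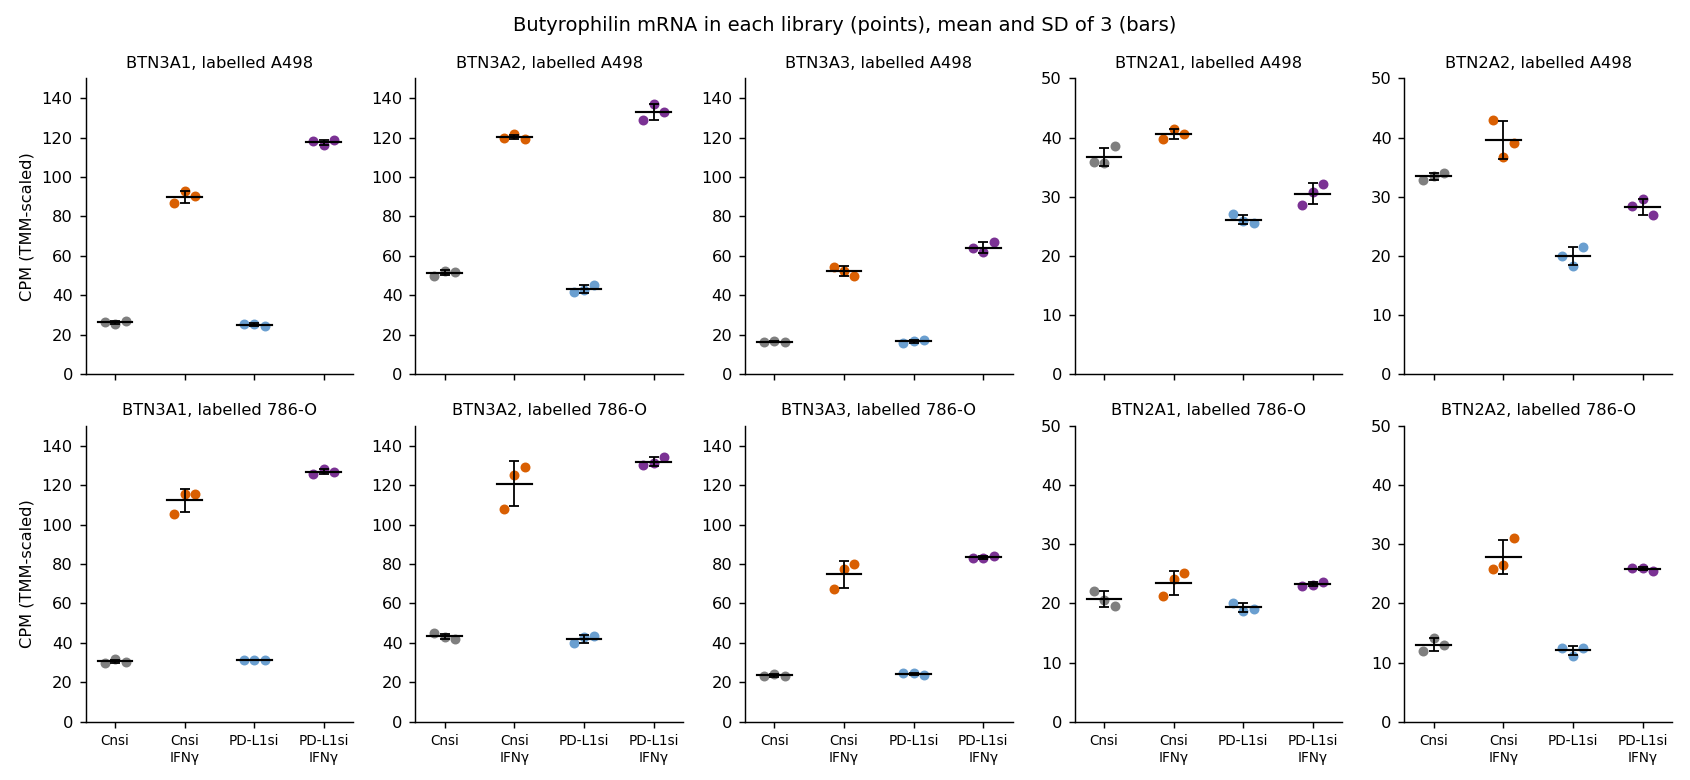
Level of each butyrophilin in CPM (TMM-scaled, linear axis from 0, with its own range for BTN3A and BTN2A genes) in every library, by line (rows) and group. Points are single libraries, and bars give the mean and SD of 3. In all 6 BTN3A panels the IFNγ libraries, at 49.7 CPM or more, stand clear of those without IFNγ, whereas BTN2A1 stays between 18.8 and 41.5 CPM throughout.

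BTN2A1, which binds the T cell receptor, stood at 35.9, 35.7 and 38.5 CPM in the A498-labelled Cnsi libraries and at 39.7, 41.5 and 40.6 CPM with IFNγ. The ranges did not overlap, but the log2 fold change of 0.15 (95% confidence interval 0.04 to 0.25) was under the threshold. In 786-O-labelled libraries the values of 22.1, 20.6 and 19.6 CPM and of 21.2, 24.2 and 25.1 CPM overlapped, with a log2 fold change of 0.18 (0.03 to 0.32). Among all genes tested its log2 fold change ranked at the percentiles 60.9 and 66.6, where the BTN3A genes ranked between 92.7 and 96.4.

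BTN2A2 was the member whose response differed between the lines. In A498-labelled libraries it stood at 32.9, 33.5 and 34.0 CPM with Cnsi and at 43.0, 36.7 and 39.1 CPM with Cnsi and IFNγ, a log2 fold change of 0.24 (SE 0.0597, adjusted p = 6.19e-04 by edgeR) that was under the threshold. In 786-O-labelled libraries it went from 11.9, 14.2 and 13.0 CPM to 25.9, 26.5 and 31.1 CPM, a log2 fold change of 1.09 (SE 0.0800, adjusted p = 1.94e-11 by edgeR). CPM were scaled within each line, so levels of different lines are not compared here. The difference between the lines in the log2 IFNγ effect was 0.80 (SE 0.0997, 95% confidence interval 0.60 to 1.00, adjusted p = 2.15e-09 by edgeR in 1 model of all 24 libraries, scaled together). BTN2A2 was the only 1 of the 5 genes past the threshold in this comparison, which 24.0% of all genes tested passed.

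The BTN3A genes did not pass in the same comparison. The difference in log2 IFNγ effect, 786-O minus A498 by label, was 0.05 for BTN3A1 (95% confidence interval -0.10 to 0.20), -0.06 for BTN3A3 (-0.23 to 0.12) and 0.20 for BTN3A2 (0.04 to 0.36, adjusted p = 3.56e-02 by edgeR). The 3 intervals together reach from -0.23 to 0.36. BTN2A1 differed by -0.02 (-0.20 to 0.15).

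Under PD-L1si the BTN3A genes passed again. They rose with IFNγ by 3.08- to 4.69-fold in A498-labelled libraries (3 of 5 genes, where 33.5% of all genes passed and 17.6% were higher) and by 3.14- to 4.03-fold in 786-O-labelled ones (4 of 5 with BTN2A2, where 18.4% passed and 11.0% were higher). BTN3A1 went from 25.4, 25.6 and 24.3 CPM to 118, 116 and 119 CPM in A498-labelled libraries, a log2 fold change of 2.23 (SE 0.0481, adjusted p = 3.62e-30 by edgeR). In 786-O-labelled libraries it went from 31.5, 31.5 and 31.3 CPM to 126, 128 and 126 CPM, a log2 fold change of 2.01 (SE 0.0511, adjusted p = 2.86e-21 by edgeR).

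The other BTN3A genes followed the same course. In A498-labelled libraries, BTN3A2 went from 41.5, 42.7 and 45.3 CPM to 129, 137 and 133 CPM and BTN3A3 from 15.6, 16.8 and 17.3 CPM to 64.0, 61.8 and 66.9 CPM. In 786-O-labelled libraries, BTN3A2 went from 39.7, 42.9 and 43.5 CPM to 130.2, 131 and 134 CPM and BTN3A3 from 24.7, 24.5 and 23.6 CPM to 82.8, 83.1 and 84.0 CPM. No PD-L1si library without IFNγ reached the level of one with it for these genes.

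BTN2A2 went from 20.0, 18.4 and 21.5 CPM to 28.4, 29.5 and 26.9 CPM in the A498-labelled PD-L1si libraries. The groups did not overlap, and the log2 fold change of 0.497 (SE 0.0668, adjusted p = 5.41e-08 by edgeR) fell just short of the fold threshold. It passed without PD-L1si replicate 3 or PD-L1si IFNγ replicate 3, at 0.55 and 0.53. In 786-O-labelled libraries, BTN2A2 rose from 12.5, 11.2 and 12.5 CPM to 26.0, 26.1 and 25.5 CPM, a log2 fold change of 1.10 (SE 0.0807). The difference between the lines was 0.57 (SE 0.104, adjusted p = 1.15e-05 by edgeR), and BTN2A2 was again the only member of the 5 past the threshold, against 22.0% of all genes tested. BTN3A1 and BTN3A3 differed the other way and under the fold threshold, by -0.26 (95% confidence interval -0.40 to -0.11, adjusted p = 4.13e-03 by edgeR) and -0.21 (-0.38 to -0.04, adjusted p = 4.87e-02), whereas BTN3A2 had -0.01 (-0.17 to 0.15) and BTN2A1 0.01 (-0.17 to 0.19). BTN2A1 stood at 27.0, 25.9 and 25.5 CPM without and at 28.6, 30.8 and 32.2 CPM with IFNγ in the A498-labelled PD-L1si libraries, a log2 fold change of 0.22.

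**Figure D2:**
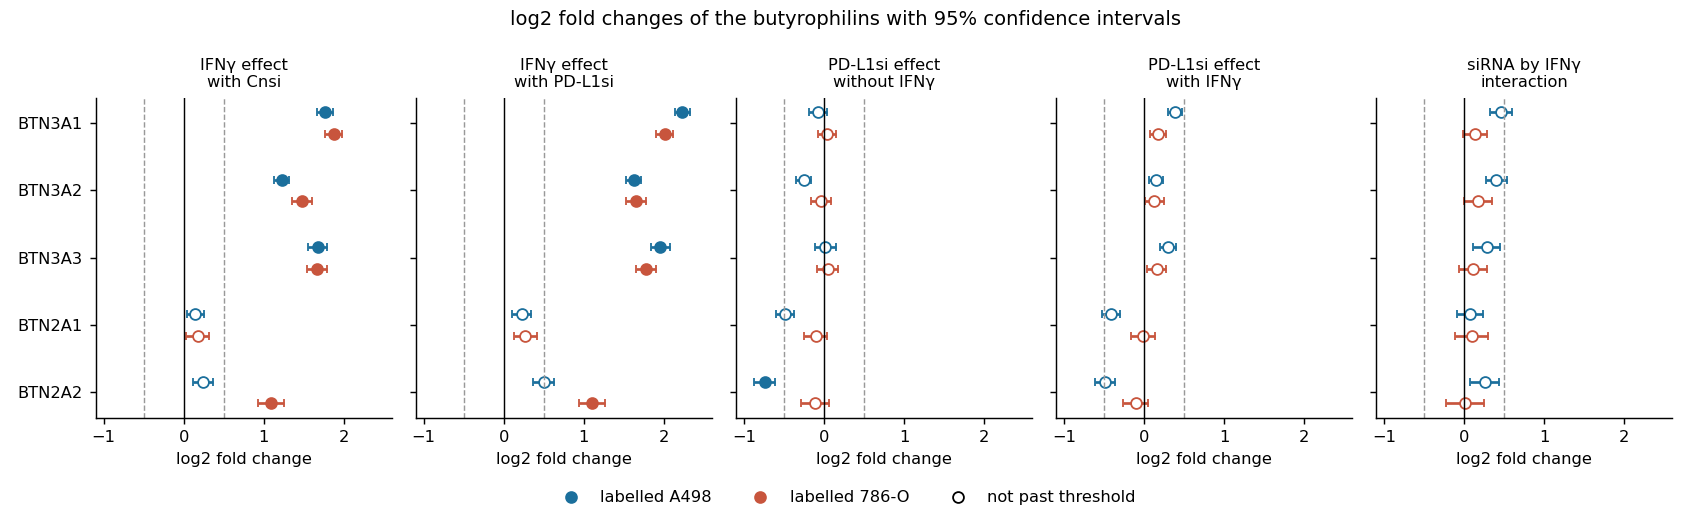
log2 fold change of each butyrophilin (x axis) in the 5 comparisons of each line, with 95% confidence intervals from the edgeR fit; filled points passed the threshold, and dashed lines mark a log2 fold change of 0.5 in either direction. The BTN3A points lie between 1.22 and 2.23 for IFNγ in both lines, BTN2A2 at 1.09 and 1.10 only in 786-O-labelled libraries, and 1 point, BTN2A2 at -0.74 in A498-labelled libraries, passed for PD-L1si.

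Without IFNγ, BTN2A2 was lower with PD-L1si than with Cnsi in A498-labelled libraries. The level was 32.9, 33.5 and 34.0 CPM with Cnsi and 20.0, 18.4 and 21.5 CPM with PD-L1si, a log2 fold change of -0.74 (SE 0.0639, adjusted p = 1.12e-11 by edgeR). It was 1 of 5 members past the threshold, where 8.48% of all genes tested passed and 5.60% were lower. BTN2A1, the other BTN2A gene, stood at 35.9, 35.7 and 38.5 CPM against 27.0, 25.9 and 25.5 CPM with PD-L1si. Its groups did not overlap either, and its log2 fold change of -0.49 (SE 0.0556, adjusted p = 6.60e-09 by edgeR) was just under the fold threshold, which it passed without Cnsi replicate 1 or 2, at -0.51 in each case. The BTN3A genes had log2 fold changes of -0.07 (BTN3A1), -0.25 (BTN3A2, 95% confidence interval -0.35 to -0.16) and 0.02 (BTN3A3). As 1 pool of siRNAs against PD-L1 was used, its effects on other transcripts cannot be told apart from the loss of PD-L1.

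In 786-O-labelled libraries, PD-L1si without IFNγ gave 0 of 5 genes past the threshold, also with DESeq2, and 0 at an unadjusted p under 0.05. Of all genes tested 2.81% passed, and 24.7% had an unadjusted p under 0.05. BTN2A2 had 11.9, 14.2 and 13.0 CPM with Cnsi and 12.5, 11.2 and 12.5 CPM with PD-L1si. Its log2 fold change was -0.11 (95% confidence interval -0.29 to 0.06), and that of BTN2A1 was -0.10 (-0.25 to 0.04). The difference between the lines without IFNγ was not tested, nor was that of CD274 itself, which stood at log2 fold changes of -2.47 and -1.42 in A498- and 786-O-labelled libraries.

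With IFNγ present, PD-L1si moved no butyrophilin past the threshold in either line, also with DESeq2. In A498-labelled libraries, where 10.1% of all genes passed, all 5 genes had an adjusted p under 0.05, as 34.1% of all genes tested did, and the subfamilies had opposite signs. BTN3A1 stood at 86.8, 92.9 and 90.3 CPM with Cnsi and at 118, 116 and 119 CPM with PD-L1si, a log2 fold change of 0.39 (SE 0.0428, adjusted p = 3.46e-09 by edgeR), with no overlap of the libraries. BTN3A3 had a log2 fold change of 0.30 (SE 0.0503, adjusted p = 1.17e-05) and BTN3A2 of 0.14 (SE 0.0425, adjusted p = 7.33e-03).

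The BTN2A genes lay on the other side of 0. BTN2A1 stood at 39.7, 41.5 and 40.6 CPM with Cnsi and IFNγ and at 28.6, 30.8 and 32.2 CPM with PD-L1si and IFNγ, a log2 fold change of -0.41 (SE 0.0561, adjusted p = 2.35e-07 by edgeR). BTN2A2 stood at 43.0, 36.7 and 39.1 CPM against 28.4, 29.5 and 26.9 CPM, a log2 fold change of -0.49 (SE 0.0625, adjusted p = 7.83e-08 by edgeR). It passed the threshold without Cnsi IFNγ replicate 2, Cnsi IFNγ replicate 3 or PD-L1si IFNγ replicate 2, at -0.54, -0.50 and -0.52.

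In 786-O-labelled libraries, where 3.03% of all genes passed for PD-L1si with IFNγ, 3 of the 5 genes had an unadjusted p under 0.05, as 26.2% of all genes did, and 1, BTN3A1, an adjusted one, as 14.0% did. BTN3A1 stood at 105, 116 and 116 CPM with Cnsi and at 126, 128 and 126 CPM with PD-L1si, a log2 fold change of 0.18 (SE 0.0474, adjusted p = 1.24e-02 by edgeR), and at 0.13 (adjusted p = 0.0349) without Cnsi IFNγ replicate 1. BTN3A2 and BTN3A3 had log2 fold changes of 0.13 and 0.16, which became 0.05 and 0.08 without that library. BTN2A1 and BTN2A2 had -0.01 (95% confidence interval -0.16 to 0.13) and -0.10 (-0.26 to 0.05).

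The PD-L1si effect with IFNγ was compared between the lines in the model of all 24 libraries. None of the 5 genes passed (4.58% of all genes did), also with DESeq2, and 3 had an unadjusted p under 0.05, as 23.8% of all genes did. The difference, 786-O minus A498 by label, was 0.39 for BTN2A1 (SE 0.0897, adjusted p = 1.35e-03 by edgeR) and 0.38 for BTN2A2 (SE 0.0975, adjusted p = 5.16e-03). For BTN3A1 it was -0.22 (SE 0.0677, adjusted p = 2.32e-02).

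The interaction of siRNA and IFNγ asks whether the log2 IFNγ effect differed between PD-L1si and Cnsi cells. None of the 5 genes passed the threshold in either line, also with DESeq2, where 2.45% of all genes passed in A498-labelled libraries and 0.0990% in 786-O-labelled ones. In the former, 4 genes had an unadjusted p under 0.05 (21.4% of all genes did), and the interaction was 0.46 for BTN3A1 (SE 0.0689, adjusted p = 1.26e-05 by edgeR), 0.40 for BTN3A2 (SE 0.0639, adjusted p = 3.89e-05) and 0.28 for BTN3A3 (SE 0.0829, adjusted p = 2.64e-02). In the latter, 0 had an unadjusted p under 0.05 (8.12% of all genes did), with values of 0.01 to 0.17.

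The order of the 4 groups by mean CPM is described here, and how many of all genes tested overlap in the same way was not computed. For BTN2A1 and BTN2A2 in A498-labelled libraries it ran PD-L1si, PD-L1si IFNγ, Cnsi, Cnsi IFNγ, with no overlap between neighbours, so that both PD-L1si groups lay under both Cnsi groups. For BTN3A1 and BTN3A2 in the same libraries it ran PD-L1si, Cnsi, Cnsi IFNγ, PD-L1si IFNγ, and only PD-L1si and Cnsi of BTN3A1 overlapped. In 786-O-labelled libraries, the PD-L1si and Cnsi groups without IFNγ overlapped for all 5 genes, and the groups with IFNγ overlapped for both BTN2A genes.

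Compared per length (RPKM, with the summed exon length), BTN2A1 was the most abundant of the 5 in A498-labelled Cnsi cells, at 9.69 ± 0.415 RPKM (SD, n = 3), ahead of BTN3A2 at 7.31 ± 0.189. With IFNγ, BTN3A2 at 17.1 ± 0.174 and BTN3A1 at 16.2 ± 0.548 stood above BTN2A1 at 10.7 ± 0.237. In 786-O-labelled libraries, BTN3A2 led without IFNγ at 6.14 ± 0.214 and BTN3A1 with IFNγ at 20.3 ± 1.06 RPKM, whereas BTN2A1 had 5.48 ± 0.339 and 6.20 ± 0.527. These orders depend on the exon length. By raw counts BTN3A2 led in A498-labelled Cnsi cells, with 31.3% of the counts of the 5 genes against 22.3% for BTN2A1. It also led in 786-O-labelled Cnsi cells with IFNγ, with 33.6% against 31.3% for BTN3A1. The summed level of the 3 BTN3A genes went from 94.3 ± 1.13 to 263 ± 4.07 CPM with IFNγ in A498-labelled Cnsi cells, and that of the 2 BTN2A genes from 70.2 ± 2.06 to 80.2 ± 2.29 CPM. In 786-O-labelled libraries the sums went from 97.3 ± 1.64 to 308 ± 24.0 CPM and from 33.8 ± 1.14 to 51.3 ± 4.56 CPM.

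The share of BTN3A2 in the summed RPKM of the BTN3A genes was lower with IFNγ. In A498-labelled Cnsi cells it was 48.8% ± 0.887 (SD, n = 3) without and 40.1% ± 0.236 with IFNγ, and the share of BTN3A1 was 31.8% ± 1.01 and 38.2% ± 1.00. In 786-O-labelled libraries, BTN3A2 had 38.8% ± 1.26 and 33.8% ± 0.639, and BTN3A1 34.9% ± 0.733 and 40.1% ± 1.06. The libraries with and without IFNγ did not overlap for either gene in either line. BTN2A2 made up 27.1% ± 2.59 of the summed BTN2A RPKM in 786-O-labelled Cnsi cells without and 41.2% ± 1.62 with IFNγ, and 35.1% ± 0.700 and 36.6% ± 2.36 in A498-labelled ones.

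**Figure D3:**
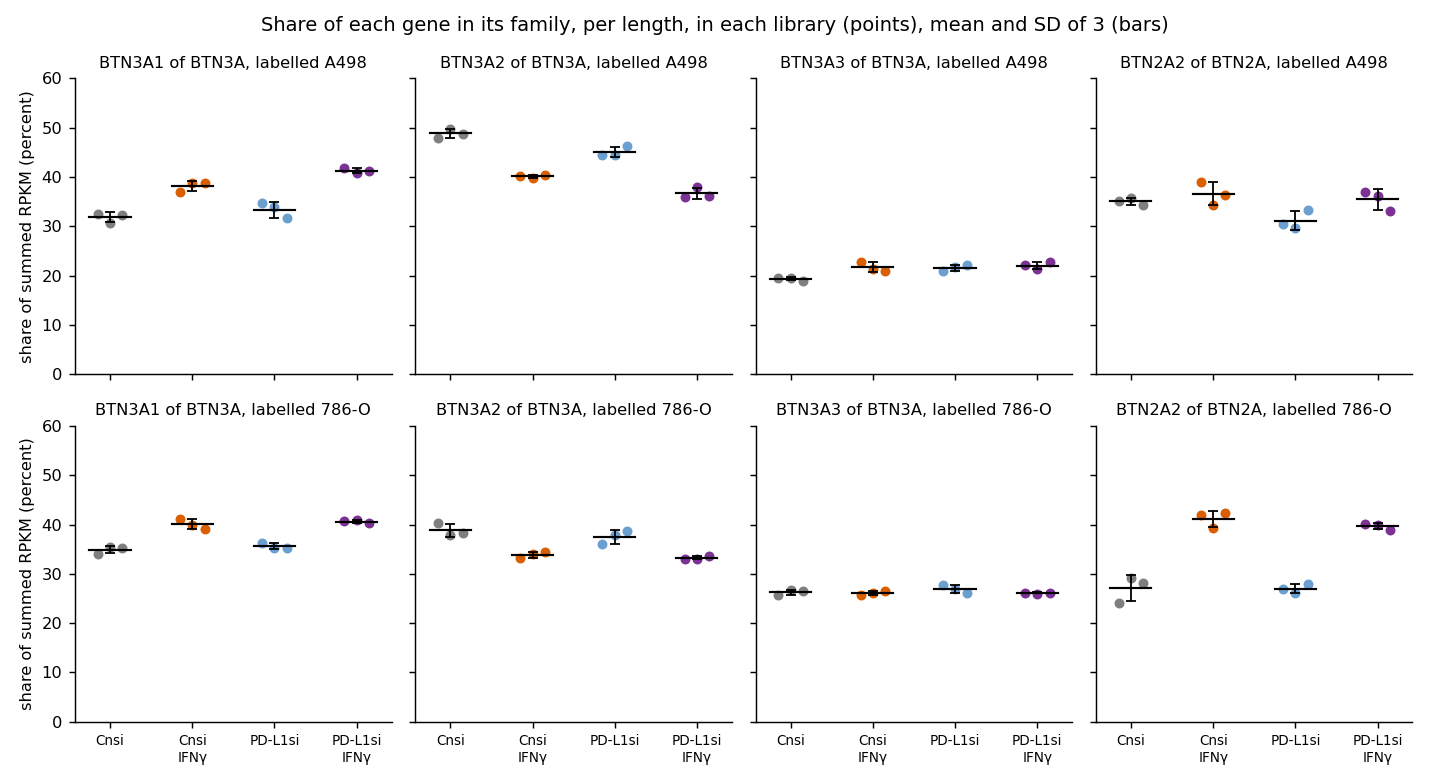
Share of a gene in the summed RPKM of its subfamily (percent, linear axis from 0) in every library, by line (rows) and group. Points are single libraries, and bars give the mean and SD of 3. BTN3A1 stands higher and BTN3A2 lower with IFNγ in each row, and BTN2A2 passes from 27.1% to 41.2% in 786-O-labelled Cnsi cells.

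Over the 12 libraries of a line, the levels on the log2(CPM + 1) scale of the BTN3A genes were correlated with each other at Pearson r of 0.989 to 0.997 in A498-labelled libraries and 0.997 to 0.999 in 786-O-labelled ones. BTN2A1 and BTN2A2 were correlated at 0.935 and 0.855. Between the subfamilies r was 0.292 to 0.551 in A498-labelled libraries and 0.828 to 0.979 in 786-O-labelled ones. These values describe libraries that share their treatments and carry no test.

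The genes most like each member over the same 12 libraries came from other chromosomes in most cases. In 786-O-labelled libraries, BTN3A1 was followed most closely by TNFRSF14, BTN3A3 and PIGR (r = 0.9993 each) among 14171 genes with a mean of at least 1 CPM. BTN3A3 was most like BTN3A1, TNFRSF14 and CIITA, BTN3A2 most like IL15RA, CIITA and ADAP1 (0.9979 each), BTN2A2 most like DNMT1, ODF3B and IRF3 (0.9957 to 0.9933), and BTN2A1 most like SRGAP2C, ACHE and ENSG00000225798 (0.9772 to 0.9680). In A498-labelled libraries, BTN3A1 was most like LINC02984, BTN3A3 and SNHG1 (0.9971 to 0.9966), BTN3A3 most like SNHG1, SH2D4A and ENSG00000287263 (0.9980 to 0.9971), and BTN3A2 most like BCL2L13, ETS2 and ERAP1 (0.9971 to 0.9968). BTN2A2 there was most like LINC02970, DNAJB12 and NFKBIA (0.9923 to 0.9804) and BTN2A1 most like SLC25A24, PRKAR1A and P4HA2 (0.9818 to 0.9776). The names depend on the scale: with log2(CPM + 0.1), TRIM21 and ENSG00000225864 took the place of TNFRSF14 and PIGR for BTN3A1 in 786-O-labelled libraries, HLA-F that of TNFRSF14 for BTN3A3, TLR4 that of ADAP1 for BTN3A2 and MX2 that of ODF3B for BTN2A2, and in A498-labelled ones LINC02984 that of ENSG00000287263 for BTN3A3.

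The neighbours of the cluster were compared to see how far the IFNγ response reached along the chromosome. Of 37 other genes in the table annotated within 250 kb, 18 were tested in A498-labelled libraries, where 5 were higher with IFNγ in Cnsi cells and 0 lower, and 20 in 786-O-labelled ones, where 5 were higher and 0 lower. Of all genes tested 18.2% and 11.1% were higher. All but ZNF322 and the lncRNA ENSG00000283064 of the higher neighbours were histone genes on the side of BTN3A2, with H2AC6 at log2 fold changes of 0.90 and 0.79, H2BC5 at 0.58 and 0.90 and H3C6 at 0.70 and 0.68 in both lines, H4C8 at 0.73 in A498-labelled libraries and H2BC4 at 0.84 in 786-O-labelled ones. None of them reached the 1.22 of BTN3A2. By the study's methods the libraries were made from poly(A)-tailed RNA, so the histone values cover only transcripts with such a tail. BTN2A3P, a pseudogene between BTN3A1 and BTN3A3, did not pass, with log2 fold changes of -0.21 (adjusted p = 1.71e-01 by edgeR) and 0.26 (adjusted p = 2.51e-01), and neither did HMGN4 at -0.18 and -0.06 or ABT1 at -0.14 and 0.06 on the side of BTN2A1. ZNF322, further out on that side, was higher at 0.58 in A498-labelled libraries and had 0.11 in 786-O-labelled ones.

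**Figure D4:**
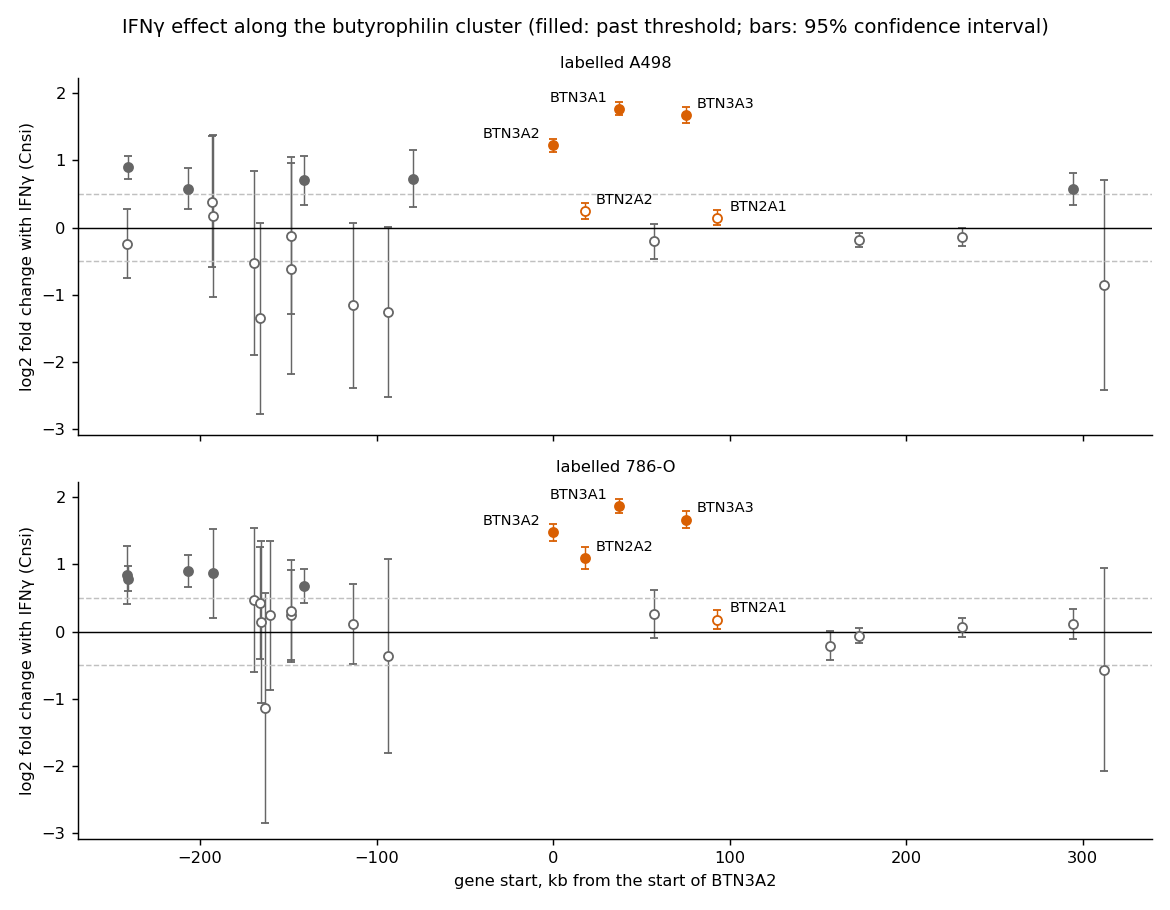
log2 fold change with IFNγ in Cnsi cells (y axis) of the butyrophilins (orange) and of their tested neighbours (grey) against the distance of the gene start from that of BTN3A2 in kb, for each line. Filled points passed the threshold and bars are 95% confidence intervals. The BTN3A genes, at 1.22 to 1.88, are interleaved with BTN2A2 and the pseudogene BTN2A3P, and wide bars belong to neighbours of low counts.

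Other genes of the wider family were rarely measured. Of 9 relatives listed, 2 were tested in A498-labelled libraries and 3 in 786-O-labelled ones. ERMAP, an erythroid member, was higher with IFNγ in A498-labelled Cnsi cells (log2 fold change 0.77, SE 0.0691, adjusted p = 4.01e-12 by edgeR) and had -0.34 in 786-O-labelled ones, which was under the threshold. BTN2A3P and BTNL9 did not pass where tested.

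Of the transcription factors and coactivators of MHC and butyrophilin genes, more were higher with IFNγ than lower in both lines. NLRC5 and CIITA are coactivators without DNA binding of their own, which act through the complex of RFX5, RFXANK and RFXAP on the X box and NF-Y on the Y box. Of the 11 genes listed, 7 were higher and 0 lower in A498-labelled Cnsi cells (median log2 fold change 0.77, against -0.032 for all genes tested, of which 18.2% were higher). Of the 10 tested in 786-O-labelled ones, 5 were higher and 0 lower (median 0.79, against 0.0049 for all genes, of which 11.1% were higher). RFXAP is listed at 0 in every 786-O-labelled library.

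IRF1 went from 58.7 ± 2.17 to 1445 ± 25.6 CPM (SD, n = 3) in A498-labelled Cnsi cells and from 38.6 ± 0.706 to 1053 ± 66.0 CPM in 786-O-labelled ones. NLRC5 had log2 fold changes of 3.28 (SE 0.0543) and 3.89 (SE 0.0620), CIITA of 2.77 and 2.56, RFX5 of 1.35 and 1.49 and IRF9 of 1.01 and 1.30, all past the threshold in both lines. IRF9 was at a low level, going from 1.10 ± 0.0836 to 2.24 ± 0.221 CPM in A498-labelled Cnsi cells. In 786-O-labelled ones it went from 1.12 ± 0.344 to 2.76 ± 0.609 CPM. RFXANK passed at a log2 fold change just above the threshold and CREB1 at 0.77 in A498-labelled libraries. The 3 NF-Y subunits did not pass in either line, with values of -0.21 to 0.22. With PD-L1si, 1 gene of the list passed, IRF1 in A498-labelled libraries without IFNγ, at -0.86 (SE 0.0463, adjusted p = 5.05e-17 by edgeR). Of all genes tested 8.48% passed there, so 1 call in a list of 11 is near that share. None of the list passed in 786-O-labelled libraries without IFNγ, where 2.81% of all genes did. With IFNγ none passed in either line, where 10.1% (A498) and 3.03% (786-O) of all genes did.

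The mevalonate pathway, which makes the isoprenoid phosphoantigens that BTN3A1 binds, was listed with 9 genes. Of these, FDPS, FDFT1 and GGPS1 act after the phosphoantigens are made. The counts and the median of the list therefore do not measure phosphoantigen synthesis. Of the 9 enzymes tested in A498-labelled Cnsi cells, 6 were lower and 1 higher with IFNγ (median -1.02, against -0.032 for all genes, of which 18.5% were lower). The lower ones were MVD (-1.49), FDFT1 (-1.39), MVK (-1.34), HMGCS1 (-1.24), IDI1 (-1.02) and FDPS (-0.90). FDPS makes farnesyl diphosphate. GGPS1, which makes geranylgeranyl diphosphate, was higher at 0.89. Of the 8 tested in 786-O-labelled ones, 0 passed (median 0.12, against 0.0049 for all genes, of which 7.39% were lower), the largest being MVK at -0.48 (adjusted p = 5.04e-05 by edgeR), and FDPS is listed at 0. PD-L1si moved 0 of them past the threshold in either line, with or without IFNγ. Of all genes tested 8.48% passed without and 10.1% with IFNγ in A498-labelled libraries, and 2.81% and 3.03% in 786-O-labelled ones. With shares this low, 0 calls in so short a list do not set these genes apart from the rest. The difference between the lines was not tested for these genes.

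**Figure D5:**
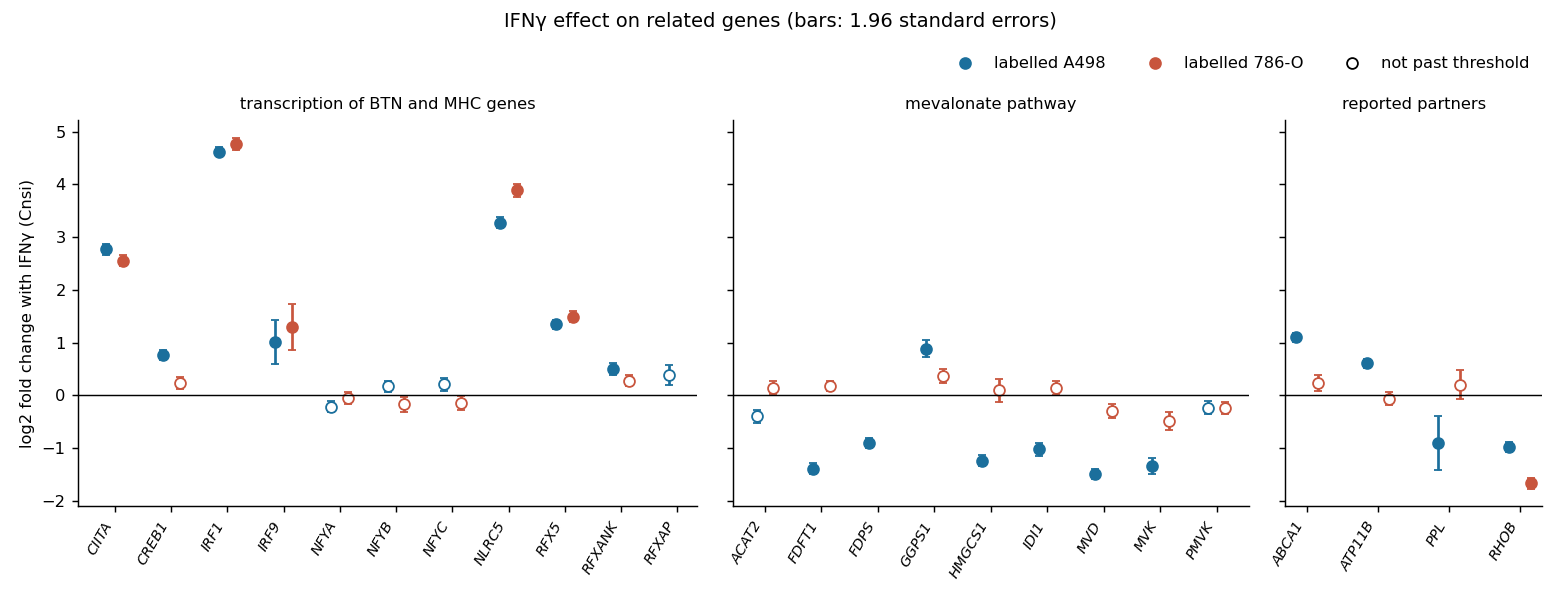
log2 fold change with IFNγ in Cnsi cells (y axis) of the listed transcription, mevalonate and partner genes, for A498-labelled libraries (blue) and 786-O (red); filled points passed the threshold and bars show the 95% normal interval from the standard error. A missing point is a gene that could not be tested in that line. IRF1 stands at 4.62 and 4.77, and the mevalonate enzymes lie mostly under -0.90 in blue and between -0.48 and 0.37 in red.

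Of 5 genes reported as partners of BTN3A1 or BTN2A1, 4 were tested in each line. RHOB, a GTPase tied to the activation of BTN3A1, was lower with IFNγ in Cnsi cells of both lines, from 77.5 ± 3.18 to 39.6 ± 0.988 CPM in A498-labelled libraries and from 119.9 ± 3.67 to 37.7 ± 2.59 CPM in 786-O-labelled ones (log2 fold changes -0.97 and -1.67). RHOB passed as higher with PD-L1si without IFNγ in A498-labelled libraries (0.93, SE 0.0442) and with IFNγ in 786-O-labelled ones (0.58, SE 0.0535). It was also higher, short of the threshold, with PD-L1si under IFNγ in A498-labelled libraries, at 53.5 ± 2.81 against 39.6 ± 0.988 CPM. The same held without IFNγ in 786-O-labelled ones, at 150 ± 1.89 against 119.9 ± 3.67 CPM. ABCA1, a lipid transporter reported to export phosphoantigens, was higher with IFNγ in A498-labelled Cnsi cells (1.10, SE 0.0440) and lower with PD-L1si under IFNγ there (-0.51, SE 0.0435), and had 0.23 with IFNγ in 786-O-labelled ones. ATP11B passed at 0.61 and PPL, a plakin that binds BTN3A1, at -0.90 with IFNγ in A498-labelled Cnsi cells, where PPL had 1.83 ± 0.656 CPM without IFNγ.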

How the data were processed

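RNA was sequenced from 24 libraries in 8 groups of 3. Per the labels and the methods of the study, the authors trimmed reads with Trimmomatic 0.36.6, aligned them to GRCh38 with HISAT2 2.1.0 and counted them per gene with featureCounts 1.6.3 in stranded mode (its forward setting, with a strand-marking kit) on GENCODE 33, with a mapping quality of at least 12. The deposited table holds these raw counts, whole numbers without normalization, of which protein-coding genes held 93.5% to 95.2% per library, and GAPDH 1913 to 5178 CPM. Stretches shared by paralogs can be lost or divided at that step. GENCODE 44 on the same assembly was used for symbols, positions and exon lengths, and matched 39148 of 39321 genes. Promoter windows came from RefSeq.

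The tests were run with edgeR 4.0.16 under R 4.3.3. A gene was kept where 1 group or more had 10 or more counts in its 3 libraries together, which left 20916 genes for A498 and 21209 for 786-O, with TMM scaling and a robust quasi-likelihood fit of the 12 libraries of a line. Differences between the lines were fitted on all 24 libraries and adjusted over 21584 genes with counts in both. The SE is the log2 fold change divided by the square root of F. The fit was tried on data simulated with its own estimate of the spread, with 200 genes changed by more than the threshold. It recovered 197 for IFNγ in Cnsi in each line and called 4 (A498) and 5 (786-O) unchanged genes. Smaller changes, and changes in as many genes as passed here, were not simulated, so this trial does not bear on effects near the threshold. Groups, replicate numbers and lines were taken from the labels. Nothing says that replicates were separate cultures, so p-values measure the spread between these libraries. The members and all lists were chosen with earlier results of these data known, and 2 listed genes are not reported here. Named genes were the 5 butyrophilins, CD274, the members of the 4 lists and the markers, neighbours within 250 kb past the threshold (those on either side of the cluster that did not pass were named after their values were seen), and the 3 genes of highest correlation per member and line. Alternatives were DESeq2 1.42.0, RLE scaling, other filters, protein-coding genes, other thresholds, fit options, the replicate number as a block and omission of each library.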

Additional observations from a re-analysis of the deposited data

Results flagged for a closer look

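BTN2A2 gave a different IFNγ effect in the lines by a test of the difference itself. In Cnsi cells the log2 effect was 0.80 larger in 786-O-labelled libraries than in A498-labelled ones (0.24 and 1.09 in the separate fits of A498 and 786-O, adjusted p = 2.15e-09 by edgeR). The Cnsi libraries with IFNγ all exceeded those without it in both lines. The A498-labelled effect was nevertheless under the threshold, and how many of all genes separate likewise was not computed. In PD-L1si cells the log2 effect was 0.57 larger (0.497 and 1.10 in the separate fits, adjusted p = 1.15e-05 by edgeR). The level of BTN2A2 without IFNγ was 33.5 ± 0.578 CPM in A498-labelled Cnsi libraries and 13.0 ± 1.15 CPM in 786-O-labelled ones (SD, n = 3). These levels were scaled within each line and not tested against each other, and line and instrument cannot be told apart.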

How the results depend on the processing

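Of 1665 recomputed log2 fold changes and differences of single butyrophilins, 1590 kept their direction and side of the threshold, 3 lost and 30 gained a call, and 42 changed sign, all of the last in values near 0 that had not passed. With the adjusted p alone, the number of butyrophilins past the threshold for A498 became 5 for IFNγ in Cnsi, 5 for IFNγ in PD-L1si, 3 for PD-L1si without IFNγ, 5 with IFNγ and 3 for the interaction. For 786-O it became 5 for IFNγ in Cnsi, 5 for IFNγ in PD-L1si and 1 for PD-L1si with IFNγ, and between the lines 2, 3 and 3. At a log2 fold change over 1 it became 0 for PD-L1si without IFNγ labelled A498 and 0 for both IFNγ differences between lines. Leaving out 1 library, the counts labelled A498 ran from 3 to 4 for IFNγ in PD-L1si, from 1 to 2 for PD-L1si without IFNγ and from 0 to 1 with IFNγ.

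The labels do not say that a replicate number pairs libraries, and the deviations of same-numbered libraries from their group means correlated at -0.0964 to 0.248 for A498 (8 of 12 libraries correlated best with their own number) and -0.322 to 0.268 for 786-O (3 of 12). With the replicate number as a block the number of butyrophilins past the threshold was the same in all comparisons, 3 for IFNγ in Cnsi labelled A498 and 4 labelled 786-O, and the calls over all genes went from 7688 to 7670 and from 3914 to 3869.

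Sign changes stood at -0.0092 (filterByExpr) and -0.014 (protein-coding genes) for the interaction of BTN2A2 labelled 786-O. For the line difference of BTN3A2 they stood at 0.00037 (RLE), 0.00039 (DESeq2) and 0.025 (protein-coding genes) in IFNγ with PD-L1si and at 0.00063 (RLE) and 0.00061 (DESeq2) in PD-L1si with IFNγ. For that of BTN2A1 in IFNγ with PD-L1si they stood at -0.0066 (filterByExpr) and -0.020 (genes with counts in both lines, chosen after seeing the data). Leaving out 1 library, the line differences ran from -0.074 to 0.044 (BTN2A1) and -0.11 to 0.014 (BTN3A3) for IFNγ in Cnsi, from -0.042 to 0.050 (BTN2A1) and -0.080 to 0.015 (BTN3A2) for IFNγ in PD-L1si, and from -0.086 to 0.041 (BTN3A2) for PD-L1si with IFNγ. Within a line they ran from -0.083 to 0.034 (BTN2A1, PD-L1si with IFNγ), -0.058 to 0.093 (BTN2A2, interaction) and -0.064 to 0.020 (BTN3A2, PD-L1si without IFNγ) labelled 786-O, and from -4.4e-05 to 0.075 (BTN3A3, PD-L1si without IFNγ) labelled A498. The cause was not tested.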
